A study of Rattus norvegicus with 8 samples.

Results

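Genes for the adhesion molecules of synapses and axons were followed in the neurohypophysis (neural lobe, or posterior pituitary) of male Sprague Dawley rats aged 35 days (4 libraries, the age the labels name as control) and 125 days (4 libraries). Members were chosen by symbol, as genes of the neurexin, neuroligin, LRRTM, SLITRK, LRFN, calsyntenin, teneurin, latrophilin, FLRT, contactin, contactin-associated protein, L1, NCAM and SynCAM (CADM) families with a depth-normalized count of 10 or more in 4 or more libraries. Of 56 symbols that matched, 53 met this minimum, out of 17919 genes that met it and 33294 listed. Both groups carried no named allele or drug, were killed by PBS perfusion under isoflurane and had the lobe frozen at once, and age was the single difference between the groups that the labels name. The labels do not say whether each library came from 1 animal or from pooled lobes.

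Adhesion molecules of this kind span the cleft between a nerve ending and its partner cell, or the space between an axon and its glia. Presynaptic neurexins bind neuroligins and LRRTM proteins on the facing membrane, latrophilins bind teneurins and FLRT proteins, and SLITRK and LRFN proteins bind receptor tyrosine phosphatases. Contactins, contactin-associated proteins and the L1 family organise the axon membrane, anchor it to ankyrin and spectrin and pair it with glia. In the neural lobe the axon endings of vasopressin and oxytocin neurons lie against pituicytes and capillaries instead of forming classical synapses, and polysialylated NCAM is known to persist there in adult rats.

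Recovered reads ran from 28429133 to 58696254 per library. On the second principal component (21.3% of the variance of log2 values) 35-day replicate 3 lay at -59.7 and the other 35-day libraries at 21.8 to 29.3. In that library the 9 anterior lobe markers (growth hormone, prolactin and other hormone and receptor genes) took 3.64% of all values. They took 0.0417 to 0.602% in the other 35-day libraries and 0.00877 to 0.131% in the 125-day libraries. No marker of the 12 lists searched was at 0 in all libraries. The 7 intermediate lobe markers, mostly Pomc, took 5.82 to 10.3% at 35 days and 10.3 to 14.5% at 125 days. Pomc itself was not called (adjusted p = 0.333), 1 of the 6 tested markers of this list was called higher, and the mean level of the list differed by 0.03 on the log2 scale. The 8 neuronal markers summed to 19864 to 26312 depth-normalized counts at 35 days and 28049 to 36691 at 125 days, with 3 called higher and 1 lower. The 8 pituicyte markers (glial genes such as Gfap) summed to 68455 to 119606 and 54971 to 80819, with 3 called lower. Of the other lists, the markers called lower were 8 of 8 for proliferation, 6 of 7 for fibroblasts, 7 of 9 for endothelium, 6 of 8 for pericytes and smooth muscle (1 higher), 3 of 7 for microglia, 3 of 9 for the anterior lobe, 2 of 8 for oligodendrocytes and 1 of 4 for Schwann cells, against 8.87% of all genes tested. Of 2 magnocellular axon markers 1 was called higher. The part of these cell types in the results below was not tested, and in bulk tissue fewer cells of a type and less RNA per cell cannot be told apart.

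The adhesion molecule genes moved in both directions, also among close relatives within a family. In limma (Benjamini-Hochberg adjusted p below 0.05 over all genes tested) 10 of the 53 members rose with age and 4 fell, or 26.4% of them against 17.7% of all genes tested. Across all genes tested 8.85% rose and 8.87% fell, against 18.9% and 7.55% of the members. The 10 that rose were Cntnap2, Lrrtm4, Cadm2, Slitrk1, Nlgn2, Ncam2, Cadm3, Slitrk2, Nrxn2 and Nrcam, and the 4 that fell were Slitrk5, Tenm2, Lrrtm3 and Lrfn1. The median log2 change (125 minus 35 days) was 0.16 over the members and 0.01 over all genes tested. The values of the ages did not overlap in 17 members (32.1%), against 24.9% of all genes tested. Cntnap2, Lrrtm4, Cadm2, Ncam2, Slitrk5 and Tenm2 were called in every alternative run, and the other 8 lost their call in at least 1. With a covariate for the level of anterior lobe markers 5 members rose and 5 fell (7.07% and 7.15% of all genes tested). In edgeR on the recovered reads 10 rose and 4 fell (8.47% and 9.22% of all genes tested). Leaving out 125-day replicate 3 or 4 left 6 higher and 2 lower, and 2 fell without 35-day replicate 2 or 125-day replicate 1. Of the 17919 genes tested, 916 rose and 1032 fell without 125-day replicate 3, and 860 and 1034 without 125-day replicate 4. Without 35-day replicate 2, 1067 of them fell, and without 125-day replicate 1, 1036. The directions were about even in the covariate fit, without 35-day replicate 3 and with library weights. In each of the other fits more members rose than fell. Without 35-day replicate 3, 14 members were higher and 13 lower (15.9% and 14.8% of all genes tested). With library weights 15 members went each way (3973 and 3919 of all genes tested).

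**Figure D1:**
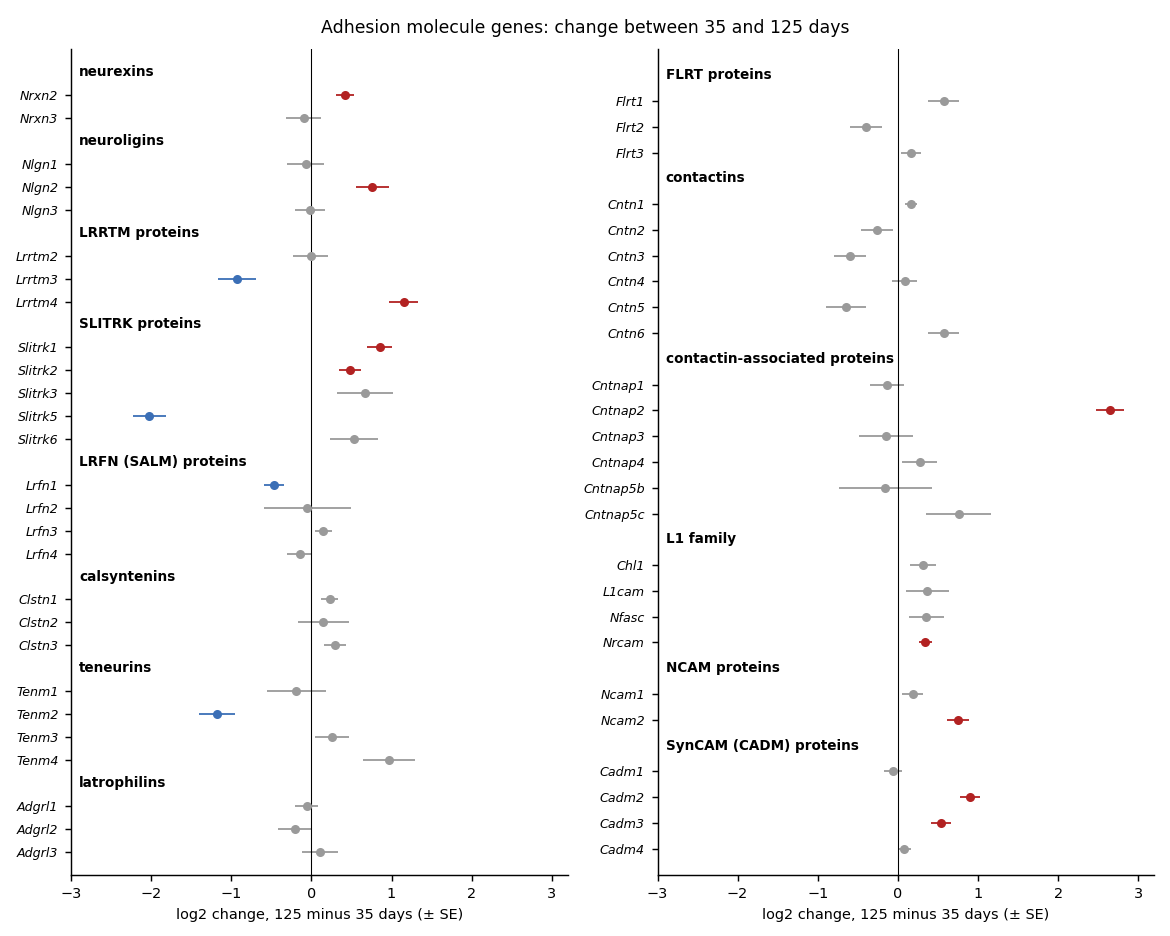
Log2 change from 35 to 125 days (x axis, 125 minus 35 days, bars ± SE from limma) of the members reported singly, by family. Red points were called higher (10), blue points lower (4) and grey points were not called, and Cntnap2 (2.65) and Slitrk5 (-2.02) lie farthest from 0.

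Cntnap2 changed most among the members. It encodes Caspr2, which clusters voltage-gated potassium channels along the axon beside the node of Ranvier together with contactin 2. At 35 days its depth-normalized counts were 1537, 1392, 907.7 and 1525 in replicates 1 to 4, and at 125 days they were 9657, 7166, 8553 and 7714. Each 125-day library was thus far above every 35-day library. The mean rose 6.17 times, from 1341 ± 296 to 8273 ± 1085 (SD, n = 4). On the log2 scale the change was 2.65 (SE 0.17, adjusted p = 1.28e-05). Over all alternatives the log2 change stayed between 2.40 and 2.72.

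The close relatives of Cntnap2 and its contactin partner did not pass in limma with all 8 libraries, equal weights and age alone. Cntnap1, encoding the Caspr protein of paranodes, was at 2293 ± 681 and 2011 ± 198 (adjusted p = 0.700, log2 change -0.14, SE 0.21). Cntn2, the contactin partner of Caspr2, was at 7526 ± 1944 and 6123 ± 821 (adjusted p = 0.401, log2 change -0.26, SE 0.20). Cntnap1 and Cntn2 were lower with library weights (adjusted p = 0.0074 and 0.00148) and without 35-day replicate 3 (0.0231 and 0.00674). Cntnap4 was at 153 ± 36.7 and 185 ± 45.1, and Cntnap3, Cntnap5b and Cntnap5c stayed below 65 in every library. The Cntnap3 and Cntnap5 genes have near copies that can share reads, so their separate values are uncertain. Cntnap2 made up 32.4 to 38.4% of the summed values of its 6-member family at 35 days and 73.9 to 82.6% at 125 days. Genes of different length collect different numbers of reads, so such shares are read across libraries and not between genes, and the shares given here were chosen after their values were seen and were not tested.

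Of the 4 L1 family genes, Nrcam passed in limma with all 8 libraries and age alone, and Nfasc, L1cam and Chl1 did not. Chl1 was higher under the anterior lobe covariate (adjusted p = 0.0159). Nrcam, a cell adhesion molecule of nodes and growing axons, was at 5457, 5580, 5227 and 5743 at 35 days and at 7029, 7165, 6641 and 7057 at 125 days. The spread within each age was small and the ages did not overlap. Its log2 change was 0.34 (SE 0.08, adjusted p = 0.0150), a call lost without 125-day replicate 4 (0.0589) and under the covariate (0.0905). Nfasc, the neurofascin gene, was at 12503 ± 3444 and 15522 ± 2107 (adjusted p = 0.293, log2 change 0.36, SE 0.21). None of the 6 contactin genes passed in limma with all 8 libraries, the deposited scaling, equal weights and age alone. The log2 changes in that fit ran from -0.65 for Cntn5 to 0.57 for Cntn6 (adjusted p = 0.107 and 0.0657). DESeq2 called Cntn3 (adjusted p = 0.0185) lower and Cntn6 (0.0276) higher. With library weights in limma Cntn2 (adjusted p = 0.00148), Cntn3 (1.67e-04) and Cntn5 (0.0112) were lower. Cntn1 (0.0162) and Cntn6 (0.00266) were higher with these weights. Cntn3 was also lower under upper-quartile scaling (0.0463) and under the covariate (0.00707).

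**Figure D2:**
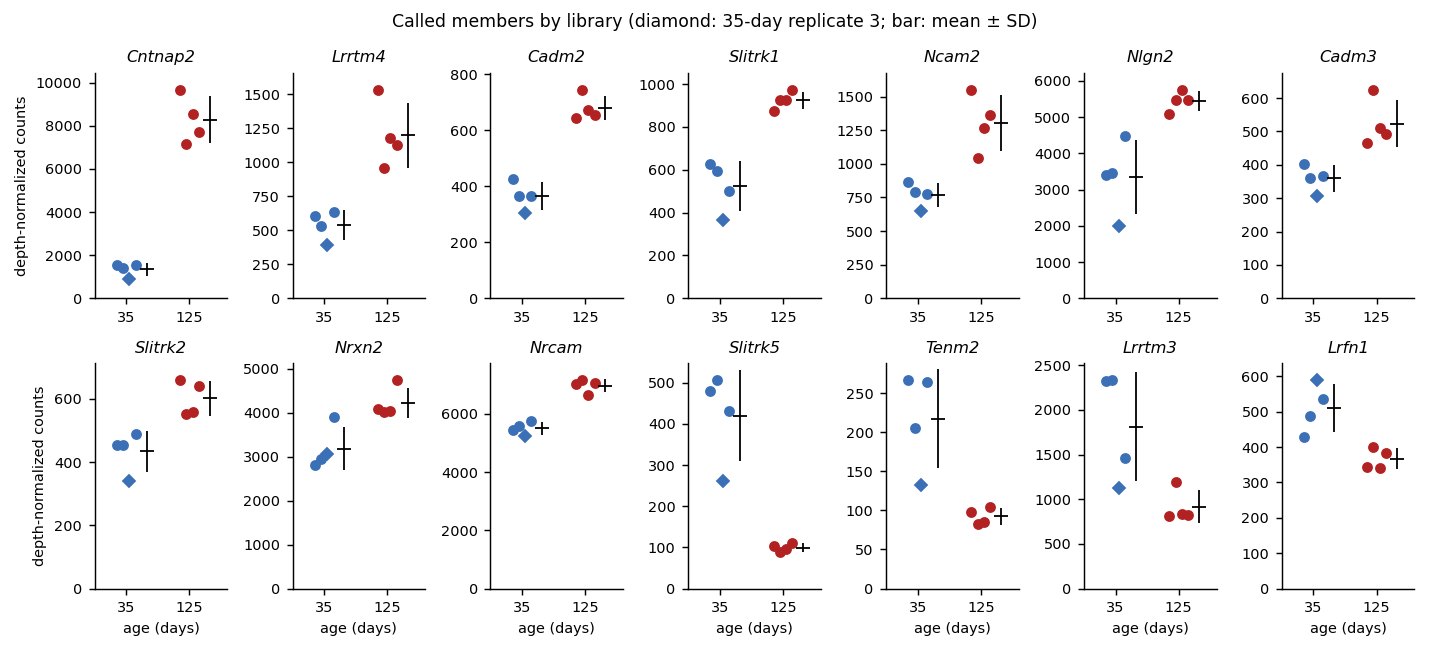
Depth-normalized counts (y axis, from 0) of the 14 called members in each library at 35 days (blue) and 125 days (red), with the mean ± SD in black. Diamonds are 35-day replicate 3, the lowest 35-day library in every panel but Nrxn2 and Lrfn1, and the ages overlap only in Lrrtm3.

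Among the leucine-rich repeat proteins that induce presynaptic differentiation from the facing membrane, close paralogues went opposite ways. Lrrtm4, a neurexin and heparan sulfate ligand, was at 607.4, 535.3, 389.0 and 633.3 at 35 days and at 1533, 961.8, 1178 and 1126 at 125 days, so that the lowest 125-day library was above the highest at 35 days. Its log2 change was 1.15 (SE 0.18, adjusted p = 0.00226). Lrrtm3 was at 2323, 2333, 1130 and 1457 at 35 days and at 812.6, 1195, 837.2 and 827.0 at 125 days, and here 125-day replicate 2 overlapped the 35-day range. It fell by 0.93 on the log2 scale (SE 0.24, adjusted p = 0.0235). Leaving out any 1 library other than 35-day replicates 3 and 4 and 125-day replicate 2 ended this call (0.0644 to 0.0720). Lrrtm3 lies within Ctnna3 in the reference annotation (GRCr8), and reads of overlapping genes cannot be told apart here. The same limit holds for all 34 members that overlap another gene of any kind there. Of these, 11 overlap a protein-coding gene, among them Tenm4 (Rpl21l5), Tenm1 (Sh2d1a) and Cntnap1 (Ccr10). Cntnap2 and Tenm2 overlap 6 and 9 genes of other kinds. Lrrtm2 was at 150 ± 33.4 and 149.5 ± 38.3. Lrrtm4 made up 17.6 to 27.9% of the summed LRRTM values at 35 days and 41.9 to 60.1% at 125 days.

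The SLITRK genes, named for their likeness to Slit and Trk proteins, also split. Slitrk5 showed the steepest fall of the members, from 480.8, 506.4, 261.5 and 431.8 at 35 days to 103.6, 87.97, 95.82 and 111.4 at 125 days. The ages were far apart even with 35-day replicate 3, the lowest of its group. The 35-day mean was 4.21 times the 125-day mean (adjusted p = 1.85e-04, log2 change -2.02, SE 0.21). Slitrk1 rose, from 628.1, 593.2, 366.1 and 502.3 to 875.6, 923.6, 925.4 and 972.7. Its ages did not overlap, and the log2 change was 0.85 (SE 0.16, adjusted p = 0.00553), with the call lost under the anterior lobe covariate (0.0554). Slitrk2 was at 455.3, 452.6, 340.0 and 489.4 at 35 days and at 659.3, 552.2, 557.3 and 640.3 at 125 days, again without overlap. It rose 0.48 (SE 0.13, adjusted p = 0.0339), a call lost with that covariate (0.221) and when any of the same 5 libraries as for Lrrtm3 was left out (35-day 1 and 2, 125-day 1, 3 and 4; 0.0577 to 0.104). Slitrk6 was at 7790 ± 2877 and 10559 ± 1788 (adjusted p = 0.265), and Slitrk3 stayed below 60 throughout. Slitrk4, under the minimum for testing, was at 9.81 to 20.3 at 35 days and 1.02 to 6.30 at 125 days. The other 2 symbols under the minimum were Lrfn5, at 9.30 to 13.4 and 3.78 to 7.82, and Cntnap5a, with at most 2 reads in any library.

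Of the 4 LRFN (SALM) genes, Lrfn1, whose product binds postsynaptic scaffold proteins, fell by 0.47 on the log2 scale (SE 0.12, adjusted p = 0.0278). Its values were 428.5, 487.8, 589.5 and 536.2 at 35 days and 343.3, 401.7, 340.4 and 382.2 at 125 days, and the ages did not overlap. The adjusted p was 0.0522 with replicate number as a block, 0.197 under the covariate, and 0.0599 to 0.0884 when 35-day replicate 2 or 4 or 125-day replicate 1, 3 or 4 was left out, so the call was lost in each. Lrfn2, Lrfn3 and Lrfn4 did not pass with equal weights (log2 changes -0.15 to 0.15), and Lrfn3 was higher with library weights (adjusted p = 0.0438). Low members just inside the minimum were Cntnap5b (at least 10 in 4 libraries, 2 of each age) and Lrfn2 (6 libraries, 3 of each age), while 50 members met it in all 8.

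The promoters of 4 members called in every alternative are shown to set genes that rose (Cadm2, Lrrtm4) beside genes that fell (Slitrk5, Tenm2). Each runs from 250 bases before to 50 after the annotated start in RefSeq (GRCr8), 5′ to 3′ on the gene's strand. Capitals mark matches, on either strand, to 6 motifs: the full cAMP response element TGACGTCA, its short form TGACG (which the full one contains), the AP-1 motif TGANTCA, the GC box GGGCGG, the E-box CACGTG and the TATA box TATAAA.
Slitrk5, chr15:95265394-95265693, plus strand: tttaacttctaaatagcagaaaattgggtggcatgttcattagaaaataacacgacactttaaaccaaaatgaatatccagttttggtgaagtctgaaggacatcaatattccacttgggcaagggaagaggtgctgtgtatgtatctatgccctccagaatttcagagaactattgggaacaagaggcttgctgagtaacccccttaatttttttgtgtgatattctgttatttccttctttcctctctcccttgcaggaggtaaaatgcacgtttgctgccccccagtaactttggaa
Tenm2, chr10:22120891-22121190, minus strand: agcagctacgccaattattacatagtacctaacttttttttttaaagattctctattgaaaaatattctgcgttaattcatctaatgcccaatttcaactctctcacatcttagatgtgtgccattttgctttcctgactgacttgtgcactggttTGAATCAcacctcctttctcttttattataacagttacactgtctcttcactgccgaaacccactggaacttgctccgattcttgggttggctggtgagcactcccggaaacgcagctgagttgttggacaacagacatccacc
Cadm2, chr11:18971837-18972136, minus strand: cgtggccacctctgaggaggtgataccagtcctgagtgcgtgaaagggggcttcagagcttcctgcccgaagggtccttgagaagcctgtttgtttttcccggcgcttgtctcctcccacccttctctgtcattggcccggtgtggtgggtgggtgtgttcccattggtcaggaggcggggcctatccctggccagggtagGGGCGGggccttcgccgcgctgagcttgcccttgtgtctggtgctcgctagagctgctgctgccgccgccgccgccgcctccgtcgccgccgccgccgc
Lrrtm4, chr4:114104380-114104679, plus strand: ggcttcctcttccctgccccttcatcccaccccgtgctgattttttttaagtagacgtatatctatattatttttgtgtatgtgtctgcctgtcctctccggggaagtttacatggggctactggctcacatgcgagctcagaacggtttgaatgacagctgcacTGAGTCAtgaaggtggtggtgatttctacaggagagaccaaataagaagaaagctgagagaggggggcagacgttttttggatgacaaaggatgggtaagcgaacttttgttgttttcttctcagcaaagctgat
Tenm2, which fell, and Lrrtm4, which rose, each held 1 AP-1 match, starting 94 and 85 bases before the start, and Slitrk5 held no match to any of the 6. The Cadm2 window had 67.0% G and C and 1 GC box, while the Slitrk5, Tenm2 and Lrrtm4 windows had 40.0, 41.3 and 46.3%, against a median of 52.3% over 27457 promoters. An AP-1 match stood in 7.33% of all promoters, in 7 of 41 member promoters found in the table and in 3 of the 11 of called members. A GC box stood in 34.9% of all, in 8 of the 41 and in 3 of the 11. The full and short cAMP elements stood in 1.91 and 22.0% of all promoters, the E-box in 6.65% and the TATA box in 14.3%, and in 5, 11, 2 and 2 of the 41. These matches are descriptions of the letters in each window.

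In the neurexin and neuroligin pair, Nrxn2 and Nlgn2 rose. Nlgn2, the neuroligin of inhibitory contacts, was at 3401, 3470, 2005 and 4478 at 35 days and at 5074, 5461, 5748 and 5462 at 125 days. The 35-day libraries were spread widely, but all were below the 125-day libraries. The log2 change was 0.76 (SE 0.20, adjusted p = 0.0287). Its call was lost with the covariate (adjusted p = 0.241, log2 change 0.45, SE 0.24), in limma without trend (0.0501) and on leaving out 35-day replicate 1, 35-day replicate 2 or a single library of the older age (0.0546 to 0.0794). Nlgn1, of excitatory synapses, was at 1535 ± 509 and 1392 ± 65.7 (adjusted p = 0.873, log2 change -0.07, SE 0.23), and Nlgn3 was at 2255 ± 587 and 2157 ± 97.3 (adjusted p = 0.957, log2 change -0.02, SE 0.19). With library weights in limma Nlgn1 (adjusted p = 0.0118) and Nlgn3 (0.0168) were lower.

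Within the neuroligin family the shares of all 3 genes were apart between the ages. Shares of a family add up to a fixed total in each library, so these are not 3 separate changes. A higher Nlgn2 share lowers the other shares even where their counts stay level. Nlgn2 made up 43.6, 44.5, 47.4 and 51.6% of the summed neuroligin values at 35 days and 58.8, 59.3, 61.9 and 62.0% at 125 days. These shares did not overlap, and 35-day replicate 3 (47.4%) lay among its group although its Nlgn2 count was the lowest. Nlgn1 made up 17.6 to 25.8% at 35 days and 14.8 to 16.3% at 125 days, and Nlgn3 30.6 to 32.9% and 23.1 to 24.9%.

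**Figure D3:**
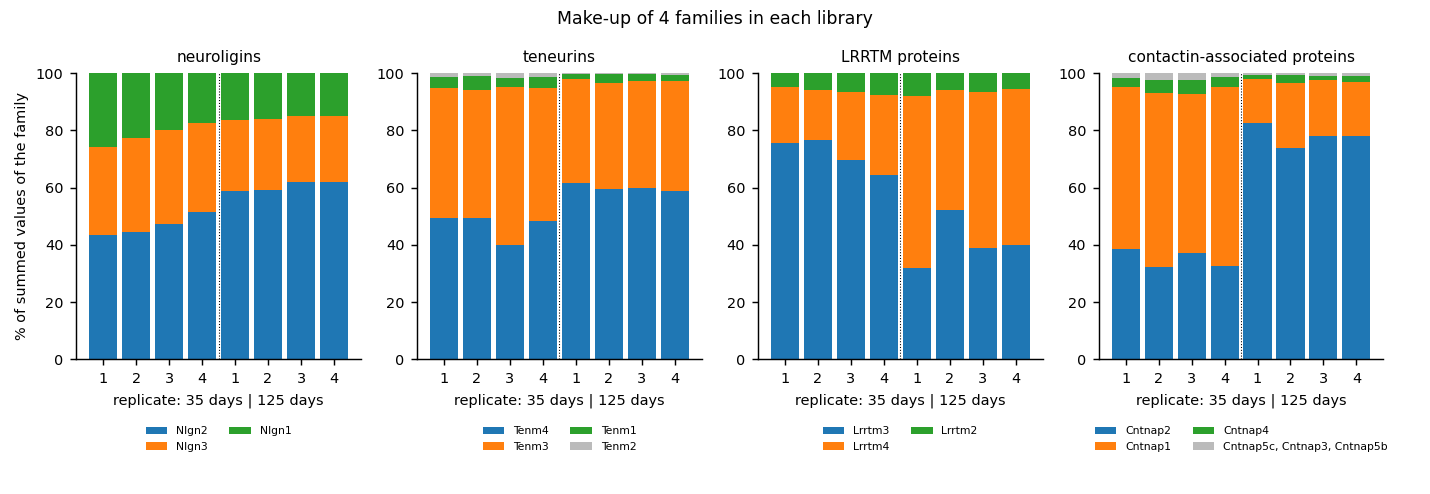
Share of the summed depth-normalized counts of a family (y axis, percent) held by each of its members in each library, with 35-day replicates 1 to 4 left and 125-day replicates 1 to 4 right of the dotted line. The Nlgn2, Tenm4, Lrrtm4 and Cntnap2 shares are higher in every 125-day library than in any 35-day library.

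Nrxn2 was at 2805, 2949, 3071 and 3907 at 35 days and at 4099, 4028, 4050 and 4747 at 125 days. The 35-day replicate 4 came close to the 125-day libraries without reaching them. It rose 0.42 (SE 0.12, adjusted p = 0.0339). Like that of Nlgn2, this call was lost in 8 alternatives: with the covariate (0.0759), in limma without trend (0.0572) and on leaving out the same libraries as for Nlgn2 (35-day 1 or 2, or any 125-day one; 0.0543 to 0.112). Nrxn3 was at 58.8 ± 10.1 and 55.3 ± 12.8 (adjusted p = 0.808, log2 change -0.09, SE 0.22).

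Teneurins, large proteins that bridge to latrophilins across the cleft, showed 1 call among 4 genes in limma with all 8 libraries, equal weights and age alone. Tenm2 was at 266.6, 205.6, 131.9 and 264.2 at 35 days and at 98.53, 82.10, 84.47 and 104.6 at 125 days, without overlap. It fell by 1.18 on the log2 scale (SE 0.23, adjusted p = 0.00636). Tenm4 was at 9433, 9161, 3167 and 10216 at 35 days and at 15872, 13621, 14672 and 13048 at 125 days. No library of one age reached the other, but the low 35-day replicate 3 widened the error (adjusted p = 0.0657, log2 change 0.97, SE 0.32). Tenm4 passed without that library (adjusted p = 9.38e-04, log2 change 0.57, SE 0.08). It also passed in DESeq2 and with library weights, and Tenm1 passed with those weights. Tenm3 was at 7771 ± 2332 and 8886 ± 430 (adjusted p = 0.460, log2 change 0.25, SE 0.22) and Tenm1 at 672 ± 294 and 539 ± 128 (adjusted p = 0.769, log2 change -0.19, SE 0.37). Tenm4 made up 39.8 to 49.6% of the summed teneurin values at 35 days and 58.8 to 61.7% at 125 days. Tenm3 made up 44.7 to 55.4% and 36.4 to 38.7%, and Tenm2 1.11 to 1.66% and 0.345 to 0.471%. The Tenm3 share was lower at 125 days although its mean count was not, because shares of a family add up to a fixed total.

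None of the 3 latrophilin genes and none of the 3 FLRT genes passed in limma with all 8 libraries, equal weights and age alone. With library weights Adgrl1 (adjusted p = 0.0253), Adgrl2 (7.25e-04) and Flrt2 (3.69e-04) were lower and Flrt1 (0.00379) was higher. Flrt1 also passed in DESeq2 (adjusted p = 0.0471) and without 35-day replicate 4 (0.0371), and Flrt2 under the covariate (0.0322). Adgrl1, encoding latrophilin 1, was at 7523 ± 1552 and 7106 ± 446 (adjusted p = 0.820, log2 change -0.06, SE 0.15). Adgrl2 was at 3389 ± 995 and 2824 ± 264 (adjusted p = 0.544, log2 change -0.21, SE 0.21), and Adgrl3 at 2625 ± 749 and 2777 ± 615 (adjusted p = 0.785, log2 change 0.11, SE 0.22). Flrt1 made up 38.0 to 46.8% of the summed FLRT values at 35 days and 48.4 to 52.9% at 125 days.

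Of the homophilic adhesion molecules, 2 of 4 SynCAM genes and 1 of 2 NCAM genes rose. Cadm2, encoding SynCAM 2, was at 427.3, 365.8, 305.1 and 364.1 at 35 days and at 645.0, 743.8, 672.0 and 655.9 at 125 days. The groups were far apart relative to their spread (adjusted p = 8.69e-04, log2 change 0.90, SE 0.12). Cadm3 was at 402.9, 361.7, 306.2 and 366.3 at 35 days and at 465.2, 624.6, 509.4 and 492.7 at 125 days, with the lowest 125-day library just above the 35-day range. It rose 0.54 (SE 0.13, adjusted p = 0.0187), a call lost without 125-day replicate 3 (0.0523) and with the covariate (0.191). Cadm1, at 8478 ± 1089 and 8081 ± 326, and Cadm4, at 1229 ± 66.5 and 1298 ± 51.8, did not pass with equal weights (adjusted p = 0.743 and 0.555). With library weights Cadm1 was lower (adjusted p = 0.0392). Ncam2, an NCAM paralogue best known from olfactory axons, was at 863.1, 791.6, 648.4 and 776.7 at 35 days and at 1550, 1043, 1265 and 1361 at 125 days. Its ages did not overlap, and it rose 0.75 (SE 0.14, adjusted p = 0.00482). Ncam1, which carries polysialic acid, was at 7448 ± 1337 and 8334 ± 124 (adjusted p = 0.39, log2 change 0.18, SE 0.13). Among the calsyntenins, cargo adaptors and postsynaptic organizers, Clstn1 was at 10518 ± 1222 and 12252 ± 220 (adjusted p = 0.166) and Clstn3 at 12156 ± 2132 and 14760 ± 1219 (adjusted p = 0.183).

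Most adhesion molecule genes had their lowest 35-day value in replicate 3. It was the lowest 35-day library in 43 of 53 members (81.1%), against 39.9% of all genes tested. The median ratio of its value to the median of the other 35-day libraries was 0.617 over the members and 0.993 over all genes tested. The strongest deficits were in Tenm1, at 247.4 against 708.5 to 895.9 in the other 3 libraries, and Tenm4. In the same library the anterior lobe marker share was highest (3.64%), and the summed neuronal (19864) and pituicyte (68455) markers were the lowest of the 35-day libraries. Single markers were mixed: 4 of 8 neuronal markers were lowest there, among them the abundant Syt1 (3405 against 7092 to 7993), and the other 4 were highest. Of the 8 pituicyte markers 3 were lowest, among them the abundant Scn7a (26838 against 46473 to 66096), and 2 were highest. Lowest there were also 6 of 7 intermediate lobe, 6 of 8 pericyte and smooth muscle and 5 of 8 oligodendrocyte markers. For endothelium and microglia the counts were 4 of 9 and 2 of 7. For proliferation, fibroblasts and Schwann cells they were 2 of 8, 1 of 7 and 1 of 4. All 9 anterior lobe and all 2 magnocellular axon markers were highest there. So was Pomc, the intermediate lobe marker that was not lowest (3724079 against 1957148 to 2248920). The share of the intermediate lobe list in that library (10.3%) was the highest of the 35-day libraries. The part of these cell types in the low values was not tested.

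Without that library 14 members rose and 13 fell, where 15.9% and 14.8% of all genes tested did. The 14 members called with all libraries kept their calls, and 13 more passed, 9 of them lower at 125 days. Among those lower, Adgrl2 changed from 3867 ± 337 (n = 3) to 2824 ± 264 (n = 4), with adjusted p = 0.00423 (log2 change -0.45, SE 0.09). Nlgn1 had a log2 change of -0.34 (SE 0.09, adjusted p = 0.0226) and Nlgn3 of -0.24 (SE 0.07, adjusted p = 0.0219). The contactin gene Cntn2 had a log2 change of -0.48 (SE 0.10, adjusted p = 0.00674), Cntn3 of -0.78 (SE 0.14, adjusted p = 0.00341) and Cntn5 of -0.79 (SE 0.25, adjusted p = 0.0359). Flrt2, Tenm1 and Cntnap1 completed the 9, at log2 changes of -0.61, -0.62 and -0.37. Besides Tenm4, Flrt1 (0.35), Cntn6 (0.67) and Chl1 (0.42) were higher in that fit. These 13 genes were picked by this fit, so their values describe it.

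**Figure D4:**
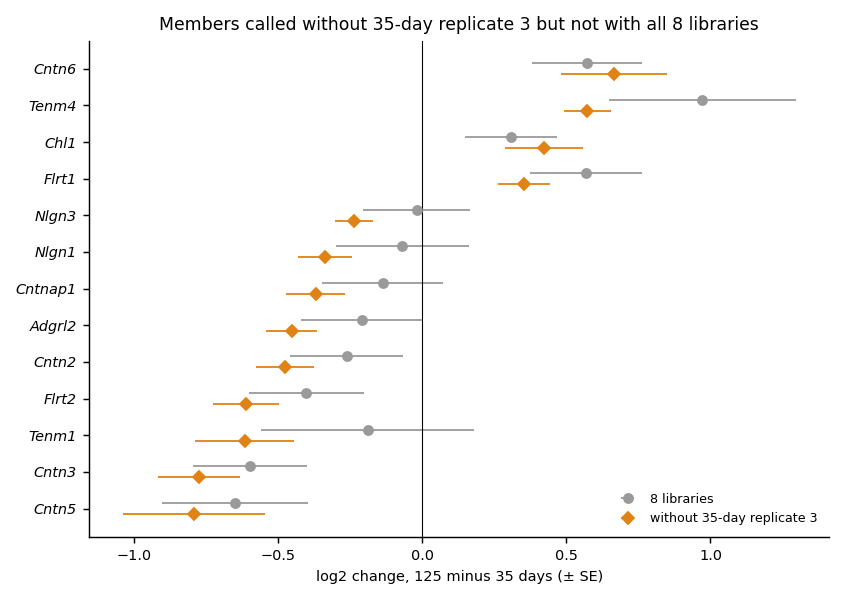
Log2 change from 35 to 125 days (x axis, ± SE from limma) with all 8 libraries (grey circles) and without 35-day replicate 3 (orange diamonds) for the 13 members that passed in the second fit but not in the first. For 9 the diamond lies below 0 and to the left of the circle, and for Tenm4 and Flrt1 the change is smaller but its error shorter.

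Genes that work with these molecules were read from a list of 75 scaffolds, secreted organizers, other membrane organizers and processing enzymes, of which 72 were tested. Of these 19 rose and 5 fell (26.4% and 6.94%, against 8.85% and 8.87% of all genes tested), with a median log2 change of 0.29. With the anterior lobe covariate the counts were 7 and 3, and without 125-day replicates 1, 3 and 4 they were 8 and 4, 9 and 3, and 8 and 3. In the same order, the counts over all genes were 1266 and 1282, 942 and 1036, 916 and 1032, and 860 and 1034. With all 8 libraries and age alone they were 1585 and 1589. Without 35-day replicate 2 the partner counts were 14 and 3 (1087 and 1067 over all genes). Without 35-day replicate 3 they were 23 and 10 (2846 and 2649 over all genes).

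Secreted ligands held the steepest changes of this list. Nxph1, encoding neurexophilin 1, a ligand of alpha-neurexins, was at 113.2, 132.3, 138.4 and 146.8 at 35 days and at 953.8, 395.8, 625.4 and 757.6 at 125 days. Every 125-day library was above the 35-day range, although they varied among themselves (adjusted p = 1.99e-04, log2 change 2.29, SE 0.24). Its relative Nxph3 rose from 230 ± 41.2 to 500.3 ± 26.7 (adjusted p = 5.18e-04, log2 change 1.14, SE 0.14). Cbln2, a cerebellin that links neurexins to glutamate receptors of the delta type, went the other way, from 72.6 ± 25.7 to 23.7 ± 9.29 (adjusted p = 0.0143, log2 change -1.59, SE 0.36), a call lost with the covariate (0.148). Nptx2, an activity-regulated pentraxin, fell from 157 ± 61.4 to 39.7 ± 7.83. C1ql2, a C1q-like ligand, rose 1.99 (SE 0.35), but it reached the minimum of 10 in 1 of the 35-day libraries and all 125-day libraries, so it was tested largely through the age where it was high.

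**Figure D5:**
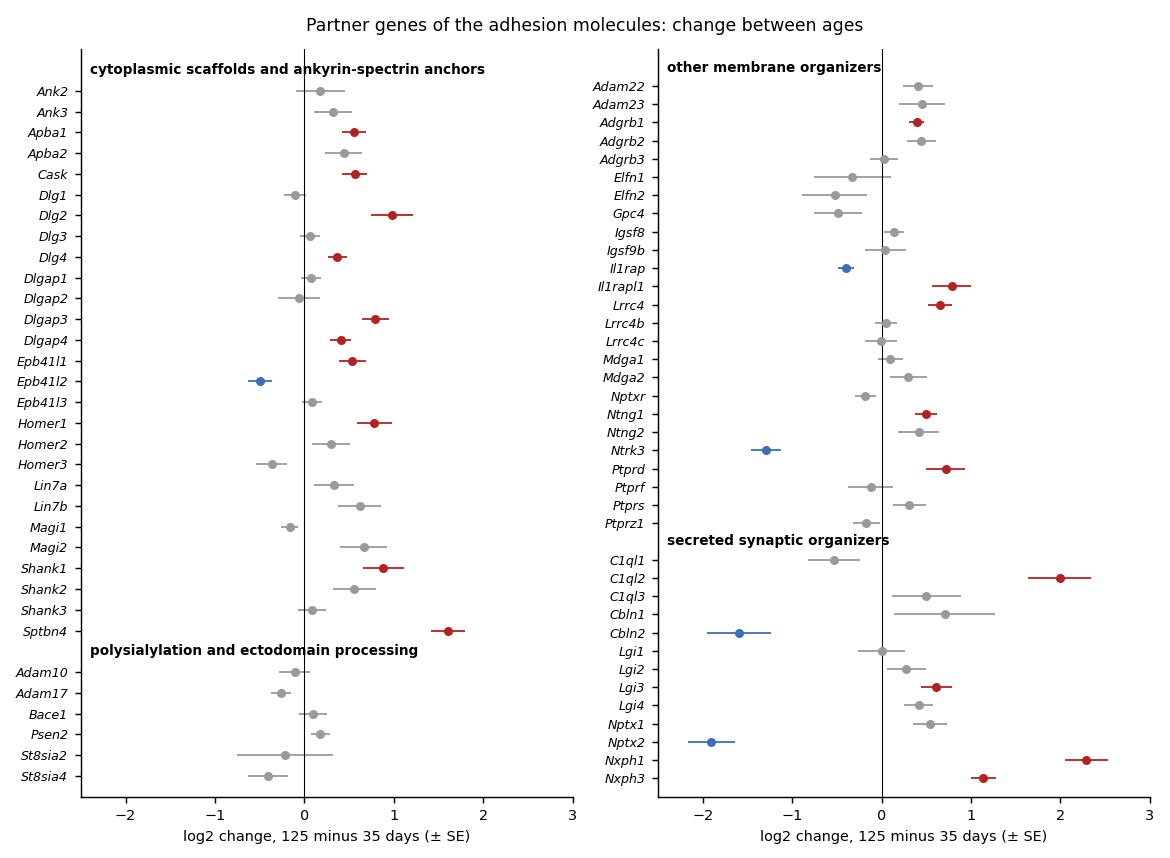
Log2 change from 35 to 125 days (x axis, ± SE from limma) of the tested partner genes reported singly, in 4 groups, coloured as called higher (red, 19), called lower (blue, 5) or not called (grey). Most calls to the right of 0 lie among scaffolds, and Nxph1 (2.29) and Nptx2 (-1.91) mark the ends.

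Of 27 scaffold and anchor genes 10 rose and 1, Epb41l2, fell. Sptbn4, encoding the beta-IV spectrin under the axon initial segment and nodes, rose from 508 ± 146 to 1517 ± 191 (adjusted p = 4.37e-04, log2 change 1.61, SE 0.19). The scaffold genes Dlgap3 (log2 change 0.79, SE 0.15) and Dlg2, a relative of PSD-95 (0.98, SE 0.23), rose as well. The Dlg2 call was lost with the covariate (0.163) and without 125-day replicates 1 (0.0526) or 4 (0.0555). Among 25 other membrane organizers 5 rose, including Adgrb1 (log2 change 0.39, SE 0.08) and the netrin-G ligand gene Lrrc4 (0.65, SE 0.14, lost with the covariate at 0.0826). The 2 that fell were Ntrk3, a neurotrophin receptor that also binds presynaptic phosphatases (adjusted p = 7.96e-04, log2 change -1.29, SE 0.17), and Il1rap (-0.40, SE 0.09, adjusted p = 0.0178). The Il1rap call was lost with the covariate (0.0885) and without 35-day replicate 2 (0.0600), 125-day replicate 3 (0.0514) or 125-day replicate 4 (0.0524). None of 7 genes for polysialylation or ectodomain processing passed in limma with all 8 libraries, equal weights and age alone. Without 35-day replicate 3 Adam10 (adjusted p = 0.0244) and St8sia4 (0.00876) were among those lower at 125 days, and so was Adam17 without 125-day replicate 2 (0.0366).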

How the data were processed

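RNA of the neural lobe was sequenced after poly(A) selection and an NEBNext Ultra II kit, per the labels' protocols. The deposited table gives, per gene, a depth-normalized signal. Within a library 100% of its values, divided by what 1 read is worth, came out whole (tolerance 0.001 reads), so reads were recovered as counts scaled by a single factor for each library, before the values were deposited. Per the submitters' processing notes the tools were DESeq2 1.34.0, featureCounts, Subread 2.0.1, SAMtools 1.13, HISAT2 2.2.1 and Trimmomatic 0.39, on build rn7. Neither annotation nor strandedness of counting is stated in those sources. The 2 columns of the authors' means were not used.

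Group and replicate came from sample titles. The labels do not say that samples are separate animals. P-values therefore reflect how these samples vary, and that variation may be technical. No 2 libraries looked like copies (chi-square per degree of freedom of 14.2 to 260 within an age).

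Tests were two-sided and fitted age alone to log2(value + 1) in limma 3.58.1 under R 4.3.3, its variance trending with intensity, over 17919 genes with at least 10 in at least 4 libraries. Adjustment was by Benjamini-Hochberg. Low genes' changes are understated on this scale. Alternatives were pseudocounts of 0.5 and 5, other filters (none, mean of at least 50), TMM and upper-quartile scaling, no trend, edgeR 4.0.16 and DESeq2 1.42.0 on recovered reads, a replicate block, an anterior lobe covariate and leaving out each library. Library weights were added after seeing the data. Marker levels (mean log2(value + 1)) were compared by an exact permutation test (70 arrangements, smallest possible p 0.0286). The limma fit was tested on simulated data. Named genes are all called members, all neurexins, neuroligins, teneurins and latrophilins, the 3 other members with the highest mean, and the 12 partner genes with the lowest adjusted p. Results for some genes that the rule or lists cover are not reported here. Other genes named (members called without 35-day replicate 3, and those given to complete a family) were chosen after their values were seen. Members, lists and tests were chosen with earlier results of these data known. Promoters and gene neighbourhoods are from RefSeq (GRCr8), which is not the files' build. Figures used matplotlib 3.10.9.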

Additional observations from a re-analysis of the deposited data

Results flagged for a closer look

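Libraries far from the other 3 of their age (Dixon's test at 95%) were looked for in 134 groups of 4: the 53 members, the 12 named partner genes, Pomc and Gfap at each age. Chance flags about 1 in 20 groups, and 12 were found, 6 of them in 35-day replicate 3. That library was the lowest 35-day one in Tenm4 (3167), Nfasc (7349), Slitrk6 (3483), Cntn3 (316) and L1cam (307), and the highest in Pomc (3724079). In 125-day replicate 2, Slitrk6 (7896), Sptbn4 (1232) and Il1rap (857) were lowest and Lrrtm3 (1195) highest of their age. Nrxn2 was highest in 125-day replicate 4 (4747) and Cntn1 in 35-day replicate 4 (4799). All values are depth-normalized counts.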

How the results depend on the processing

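All 14 called members kept their direction in every alternative run, and 6 (Cntnap2, Lrrtm4, Cadm2, Ncam2, Slitrk5, Tenm2) also their call. Counts are given as higher and lower. With all 8 libraries they were 10 and 4 for members, 19 and 5 for partner genes and 1585 and 1589 for all genes. With the anterior lobe covariate they were 5 and 5, 7 and 3, and 1266 and 1282. With library weights they were 15 and 15, 27 and 16, and 3973 and 3919. Leaving out 1 library gave 6 to 14 and 2 to 13 for members, 8 to 23 and 3 to 10 for partner genes, and 860 to 2846 and 1032 to 2649 for all genes, the highest without 35-day replicate 3. Members numbered 13 and 5 in DESeq2 (2001 and 2195 for all genes) and 10 and 4 in edgeR (1518 and 1652). With the replicate block they were 10 and 3, and 1290 and 1428 for all genes. Same-numbered libraries correlated at 0.044, 0.167, 0 and -0.116 in their deviations from the age means, and 2 of 8 correlated best with their own number. Pairing by number was thus not visible, though these values cannot exclude it. No scaling moved the median of all genes by over 0.1. Mean marker levels did not pass at adjusted p below 0.05 with all libraries, in which the smallest adjusted p was 0.0686. The pituicyte, fibroblast, microglia and macrophage, oligodendrocyte and proliferation lists were at the smallest p the permutation test can give (0.0286). After adjustment such lists pass only if enough of them reach that limit, however large the differences. This test thus cannot decide whether they differed with all libraries. Without 125-day replicate 2, 7 lists passed (exact permutation, adjusted p = 0.0490), again set by how many reached the smallest possible p. Over the libraries left out, their differences ran from 0.251 to 0.395 (neuronal), -0.860 to -0.667 (pituicyte), -0.844 to -0.545 (endothelium), -1.37 to -1.15 (fibroblast), -0.581 to -0.381 (microglia and macrophage), -0.826 to -0.563 (oligodendrocyte) and -2.83 to -2.77 (proliferation). The causes were not tested.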
